A study of Rattus norvegicus with 6 samples.

Results

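Expression of 10 genes of phospholipase A2 and prostaglandin synthesis was measured in the neonatal rat ovary after an immune challenge. The genes were Pla2g2a, Pla2g4a, Pla2g5, Ptgs1, Ptgs2, Ptges, Ptgis, Ptgds, Hpgd and Ptger2. They were chosen by name, with earlier results of these arrays known, and they are 10 of the 15154 genes that could be named on the array, read by 11 probes. Because the contrast of treatments was known when the genes were chosen, their values are given as a description, with no test. Wistar rats received lipopolysaccharide (LPS) of Salmonella enterica at 0.05 mg/kg, or the same volume of saline, by intraperitoneal injection at 3 and again at 5 days of age, and whole ovaries of female pups were taken on postnatal day (PND) 7. RNA from 3 LPS samples and 3 saline samples was hybridised to 6 one-colour Agilent SurePrint G3 Rat GE 8x60K arrays. Whole litters had been allocated to a treatment, so litter and treatment cannot be told apart, and the labels do not say which animals gave each sample, so the spread between arrays of a group may be partly technical. By the paper's account, the array ovaries of each treatment came from fewer litters than there are arrays. The arrays of a group are thus not separate litters, and the SD and SE below do not measure the spread between litters.

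Prostaglandins are lipid mediators made from arachidonic acid. Phospholipases A2 free the fatty acid from membrane phospholipids, the cyclooxygenases Ptgs1 and Ptgs2 turn it into prostaglandin H2, terminal synthases such as Ptges, Ptgis and Ptgds make the separate prostaglandins, and Hpgd inactivates them. In the adult ovary, Ptgs2 and prostaglandin E2, acting through receptors such as Ptger2, are known for their part in ovulation and expansion of the cumulus, and in many tissues Pla2g2a and Ptgs2 are genes of the inflammatory response.

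All values are log2 signals relative to the 75th percentile of the same array, which is set to 0, so that a difference of 1 is a 2-fold difference, and levels of different probes were not set against each other. A probe counted as well above background on an array where the scanner software gave that flag to at least 50% of its unflagged spots. The flag was given to 72.4% to 76% of spots on the LPS arrays and 66.3% to 70.4% on the saline arrays. Detection on LPS arrays alone is therefore not read as expression after LPS alone. Of the genes, 8 met this on all 6 arrays, Ptger2 on 2 arrays and Ptgs2 on none. The arrays shared 1 slide and 1 scan. LPS 2 and 3 lay in 1 row of the slide, and LPS 1 and all saline arrays in the other. A fit with the slide row as a block therefore sets LPS 1 alone against the saline arrays. Of the ovarian markers with a probe, all 7 of oocytes and 3 of 4 of granulosa cells were well above background on every array. Neither group was uniform in its summed markers, where the array's 75th percentile is 1. Oocyte markers summed to 16.7, 46.7 and 38 on LPS 1, 2 and 3, and to 22.7, 19.9 and 33.4 on saline 1, 2 and 3. Granulosa cell markers summed to 11.7, 54 and 34.7 after LPS and to 23.8, 26.4 and 46.6 after saline. The part of these ovarian markers in the values below was not tested. The summed level of 7 adrenal cortex genes was 165 on saline 2 and 221 on saline 3, where the array's 75th percentile is 1, against 0.805 to 1.67 on the other 4 arrays, and 9 genes of the adrenal medulla summed to 94.6 and 57.7 against 3.5 to 6.36. Every adrenal marker with a probe was well above background on at least 1 array. The part of this signal in the values below was not tested, and values without both arrays are given beside each of the 10 genes but Ptgs2. Such values rest on saline 1 as the lone saline sample, which is assumed to vary like the LPS samples. Saline 1 stood apart in another way, since a region in the middle of that array, with 2663 spots or 4.54% of those read, had signals below those of the same spots on the other arrays, with a local median difference down to -1.69. One spot of 3 of the 11 probes of the genes described here lay in that region, and no spot of theirs lay in such a region of another array. The values of these genes are therefore given with and without the region.

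Pla2g2a, the secreted group IIA phospholipase, had the largest difference of the 10 genes. Its level was 0.39, -0.09 and -0.82 on LPS 1, 2 and 3, and -1.09, -1.58 and -1.08 on saline 1, 2 and 3. Every LPS array was above every saline array, with a gap of 0.25 between the groups. The mean was -0.17 ± 0.61 (SD, n = 3) after LPS and -1.25 ± 0.28 (SD, n = 3) after saline, a difference of 1.08 (limma SE 0.34) or 2.11-fold. LPS was above saline by 1.49 in both the first and the second pair of arrays with the same replicate number and by 0.25 in the third. Arrays of like number are not known to be pairs by design. Without saline 2 and 3 the difference was 0.92.

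The low value of Pla2g2a on saline 1 came from 1 of its 2 spots. On saline 1 the spot inside the low-reading region gave -2.07 and the spot outside it gave -0.11, whereas on the other 5 arrays the 2 spots gave nearly the same level. With the inside spot the groups were separate, with a difference of 1.42. The outside spot alone read 0.34, -0.09 and -0.82 after LPS and -0.11, -1.60 and -1.07 after saline, so that saline 1 lay level with LPS 2 and above LPS 3. Its difference was 0.73. When spots in low-reading regions were left out on all arrays, Pla2g2a was 0.76 (SE 0.45) or 1.70-fold higher after LPS, the groups overlapped and the first pair differed by 0.54. With saline 2 and 3 also left out, the difference was -0.03, so the positive sign did not hold in that setting. The local median difference at the inside spot was -1.51 on saline 1.

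**Figure D1:**
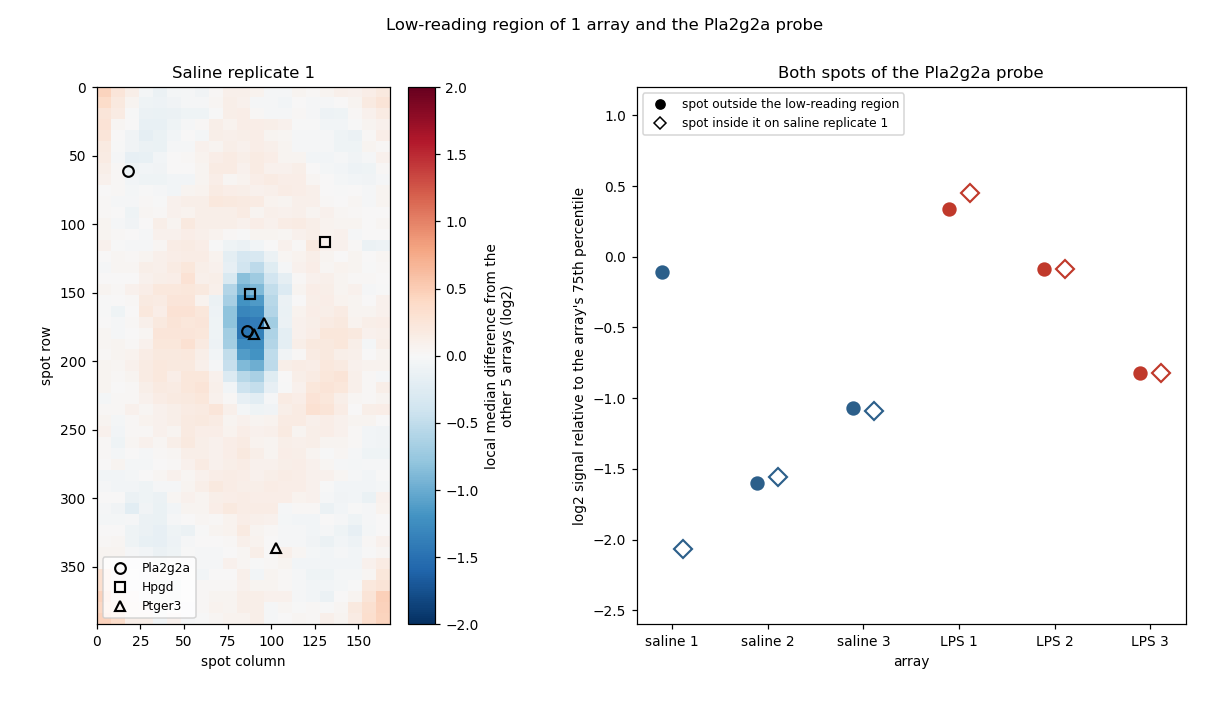
The left panel maps saline replicate 1 by spot row and column, coloured by the local median log2 difference of its spots from the other 5 arrays, with the spots of Pla2g2a, Hpgd and Ptger3 marked. The right panel plots the log2 level of each of the 2 Pla2g2a spots on the 6 arrays. The 2 spots differ on saline 1, at -0.11 and -2.07, and lie together on the other 5 arrays.

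Pla2g5 and Pla2g4a also had every LPS array above every saline array, by smaller amounts, and neither probe had a spot in a low-reading region. Pla2g5, a secreted phospholipase of the same family as Pla2g2a, was at -1.77, -1.89 and -1.94 after LPS and at -2.01, -2.66 and -2.05 after saline. The difference was 0.37 (SE 0.22), with a gap of 0.06 between the groups. Saline 2 was well below the other 5 arrays, and without it the difference was 0.16, or 0.14 without saline 2 and 3. Pla2g4a, the cytosolic calcium-dependent phospholipase that favours phospholipids carrying arachidonic acid, was at 0.43, 0.32 and 0.38 after LPS and at 0.26, 0.20 and -0.07 after saline. Its difference was 0.24 (SE 0.17) with a gap of 0.06, and without saline 2 and 3 it was 0.11.

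The promoters of these genes are shown because Pla2g2a and Pla2g5 are neighbours on chromosome 5, on opposite strands, and both had a positive difference, whereas Pla2g4a and Ptgs2 are neighbours on chromosome 13 and only Pla2g4a was detected. Each sequence is from RefSeq, build GRCr8, 5′ to 3′ on the strand of the gene, from 250 bases before the gene's start to 50 after it. Capitals mark matches on either strand to a C/EBP motif (TTNNGNAA), the TATA box (TATAAA), AP-1 (TGANTCA), CRE (TGACGTCA), the NF-kB consensus or a GC box (GGGCGG), and overlapping matches are merged.
Pla2g2a, chr5:156359475-156359774, plus strand: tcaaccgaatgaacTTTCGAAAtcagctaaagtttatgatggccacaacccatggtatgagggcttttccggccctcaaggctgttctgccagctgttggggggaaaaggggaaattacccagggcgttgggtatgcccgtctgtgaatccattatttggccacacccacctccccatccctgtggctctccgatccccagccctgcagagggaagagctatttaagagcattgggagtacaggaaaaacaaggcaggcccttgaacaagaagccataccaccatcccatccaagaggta
Pla2g5, chr5:156345873-156346172, minus strand: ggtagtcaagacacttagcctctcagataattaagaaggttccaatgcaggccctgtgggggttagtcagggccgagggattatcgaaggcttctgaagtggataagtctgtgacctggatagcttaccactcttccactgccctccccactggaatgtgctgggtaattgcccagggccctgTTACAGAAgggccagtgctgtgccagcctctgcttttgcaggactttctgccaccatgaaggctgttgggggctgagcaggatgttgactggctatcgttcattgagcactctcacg
Pla2g4a, chr13:64572303-64572602, minus strand: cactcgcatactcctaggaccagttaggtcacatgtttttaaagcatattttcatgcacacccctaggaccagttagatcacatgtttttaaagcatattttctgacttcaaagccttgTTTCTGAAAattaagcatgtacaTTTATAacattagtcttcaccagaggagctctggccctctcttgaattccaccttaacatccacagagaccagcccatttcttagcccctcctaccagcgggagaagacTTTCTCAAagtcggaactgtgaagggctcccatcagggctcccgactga
Ptgs2, chr13:64713813-64714112, plus strand: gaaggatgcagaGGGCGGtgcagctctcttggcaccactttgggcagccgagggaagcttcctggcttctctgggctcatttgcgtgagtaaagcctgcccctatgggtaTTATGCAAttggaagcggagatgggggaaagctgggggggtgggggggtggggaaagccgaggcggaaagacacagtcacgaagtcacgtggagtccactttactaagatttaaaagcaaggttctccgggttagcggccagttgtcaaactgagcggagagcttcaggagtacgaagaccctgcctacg
All 4 held a C/EBP match, as did 41.3% of the 33469 promoters of this length. It began 236 bases before the start in Pla2g2a, 67 in Pla2g5 and 140 in Ptgs2, while Pla2g4a held 3 matches, the first 2 of which overlap. None of the 4 held an NF-kB match (7.51% of all promoters), an AP-1 match (7.33%) or a CRE match (1.83%) in this window. A match to the TATA box letters was found in Pla2g4a alone (14.2% of all promoters) and a GC box in Ptgs2 alone (33.1%). The Pla2g4a match lay 108 bases before the start, on the strand opposite to the gene. These letters describe the windows and were not tested as binding sites.

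Of the cyclooxygenases, the constitutive enzyme Ptgs1 was well above background on all arrays and its groups overlapped. Its probe with 10 spots was at 0.64, -0.01 and 0.07 after LPS and at 0.59, -0.71 and -0.35 after saline. Saline 1 was level with LPS 1, and both lay above the other 4 arrays. The difference was 0.39 (SE 0.37). LPS was above saline by 0.05, 0.69 and 0.41 in the 3 pairs of like replicate number. With the replicate number as a block the SE was 0.19, but that pairing comes from the data and is not a known part of the design. A second Ptgs1 probe read -0.88, -1.82 and -1.65 after LPS against -1.39, -2.88 and -2.10 after saline, a difference of 0.67 (SE 0.43). With saline 2 and 3 left out together, the difference of the first probe was -0.36. One of its 10 spots lay in the low-reading region of saline 1, where it had been flagged by the software and was not used.

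The inducible cyclooxygenase Ptgs2 did not reach well above background on an array of either treatment, so no fold is given for it. Its signals were -6.91, -6.84 and -7.33 after LPS and -6.79, -6.08 and -6.45 after saline. The LPS arrays were all below the saline arrays, with a gap of 0.0475, but this held for 61.2% of the 3173 named genes that were well above background on no array, against 17.9% of all named genes. Ptgs2 was thus not detectable by this probe on PND 7 in either group.

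Among the terminal synthases, Ptgis, the prostacyclin synthase of vessel walls and smooth muscle, came nearest to separating the groups. It was at -0.27, 0.14 and 0.02 after LPS and at -0.27, -0.36 and -0.65 after saline. LPS 1 and saline 1 were level and the other LPS arrays were higher than all saline arrays. The difference was 0.39 (SE 0.20), or 0.23 without saline 2 and 3. All 6 smooth muscle markers had a positive difference, as did all 7 oocyte, 3 mesothelial and 2 oviduct markers with a probe. The summed level of smooth muscle markers was 36, 46.2 and 56.1 on LPS 1, 2 and 3. On saline 1, 2 and 3 it was 42, 40 and 23.4. It was highest on LPS 3, whereas Ptgis was highest on LPS 2. The part of these markers in the Ptgis value was not tested.

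Ptges, the microsomal prostaglandin E synthase that is coupled to Ptgs2 in inflamed tissue, was read by a probe with a single spot. It was at -1.83, -0.61 and -0.78 after LPS and at -1.52, -1.56 and -0.94 after saline. LPS 1 was the lowest of the 6 arrays while LPS 2 and 3 were the highest. The difference of 0.27 (SE 0.36) was smaller than its error and was 0.45 without saline 2 and 3, and blocking on the slide row turned it to -0.49, since in that fit LPS 1 alone is set against the saline arrays of its row.

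Ptgds, the lipocalin-type prostaglandin D synthase, was at 1.70, 0.95 and 0.69 after LPS and at 1.56, 0.14 and 0.76 after saline. The replicate 1 arrays of both treatments were the highest. The difference was 0.30 (SE 0.42), and it was -0.04 without saline 2 and -0.44 without saline 2 and 3.

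Hpgd, the dehydrogenase that starts the breakdown of prostaglandins, was at -1.05, -1.62 and -1.99 after LPS and at -1.69, -2.16 and -2.23 after saline. The groups overlapped, as LPS 3 was below saline 1. The difference was 0.47 (SE 0.29), with LPS higher by 0.64, 0.54 and 0.24 in the 3 pairs. One of its 2 spots lay in the low-reading region of saline 1, where it read -2.18 against -1.19 for the other spot. Without the spots in such regions the difference was 0.32 (SE 0.36), and the first pair differed by 0.18. The difference was 0.13 without saline 2 and 3, and -0.32 without those arrays and those spots.

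Ptger2, a receptor for prostaglandin E2 that signals through cyclic AMP, was well above background on LPS 1 and LPS 3 and on no saline array. Its signals were -4.45, -4.97 and -5.09 after LPS and -4.84, -5.99 and -5.53 after saline. The groups overlapped, since saline 1 lay above LPS 2 and 3. Saline 1 was thus not well above background although it read higher than LPS 3, which was. No fold is given for it, since the fitted difference of 0.61 became -0.04 after normexp background correction and was 0.0023 without saline 2 and 3.

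**Figure D2:**
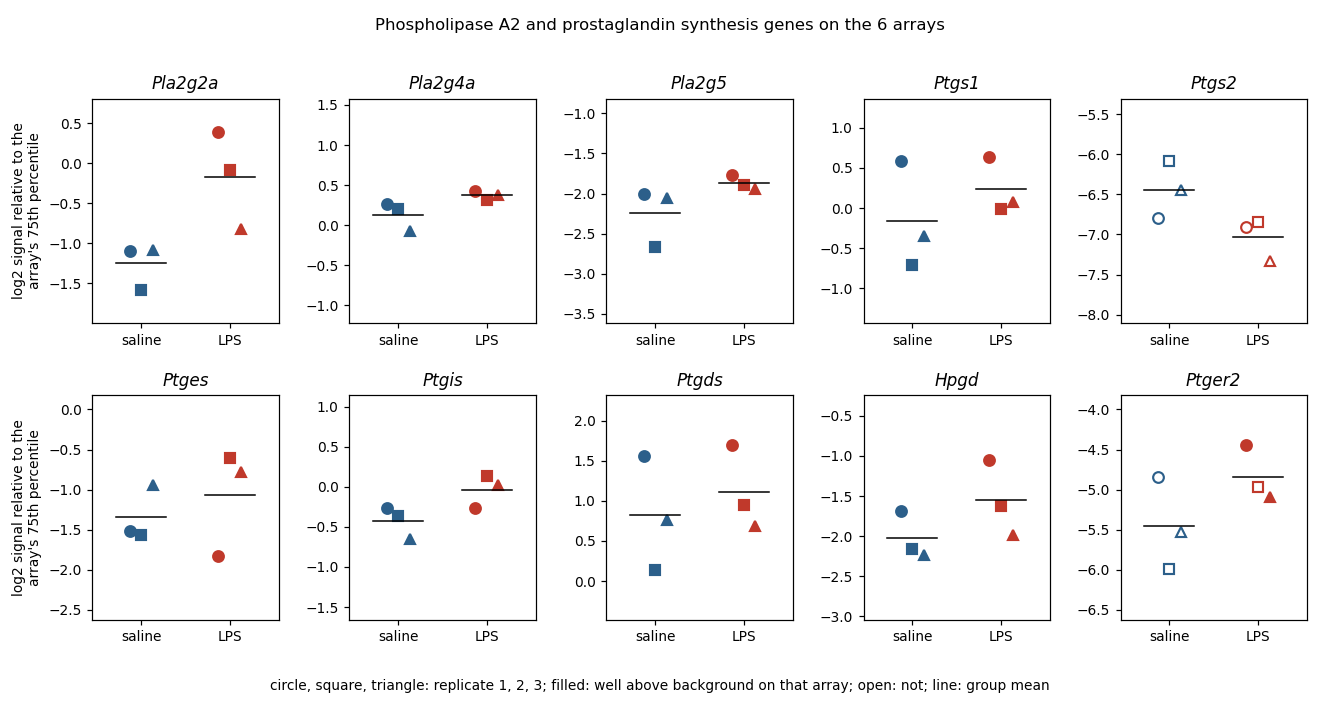
Log2 signal of the 10 genes relative to the array's 75th percentile on the 6 arrays, each gene on its own vertical scale, with saline in blue and LPS in red. Circles, squares and triangles are replicates 1, 2 and 3, filled where the probe was well above background, and lines are group means. Pla2g2a, Pla2g4a and Pla2g5 show all LPS points above all saline points, and Ptgs2 is open on every array.

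Read from the fit as a description, the study's criterion of a 2-fold difference at an unadjusted limma p under 0.05 was met among the 10 genes by Pla2g2a, and in that direction by 0.594% of the 15154 named genes, and no gene of the 10 was lower by it (1.17% of named genes). Without saline 1, where saline 2 and 3 with their adrenal marker signal were the whole saline group, 290 probes passed an adjusted limma p of 0.05. With every array in the fit no probe passed it, while 5018 of 30367 had an unadjusted p under 0.05. The count fell to 0 without the spots in low-reading regions, without saline 2 and 3 together, without LPS 1, without saline 2, with normexp correction and with the methods' t-test. The LPS arrays all exceeded the saline arrays for 3 of the 10 genes, against 5.31% of all named genes, and these 3 were among the 8 genes detected on all arrays, where the share over named genes was 5.88%. Without spots in low-reading regions the detected genes with separate groups were Pla2g4a, Pla2g5 and Ptgis. Ptgis had no spot in those regions, and with all spots the gap between its groups was -0.00386. Its values moved only because each array's 75th percentile was taken again without those spots. The contrast was known when the genes were chosen, so nothing is read from these shares, nor from the signs and medians that follow. The 8 detected genes all had a positive difference, from 0.24 to 1.08 with a median of 0.38, whereas over 10012 named genes detected on all arrays the median was 0.02 and 53.6% of differences were positive. Without scaling between arrays the median difference was 0.34 over all probes, in place of -0.04, and 0.75 over the 8 genes. When saline 2 and 3 were left out together, 6 of the 8 were positive with a median of 0.14, beside a median of -0.15 over all probes, and with the spots in low-reading regions left out as well 4 of the 8 were positive with a median of 0.06, beside -0.13.

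**Figure D3:**
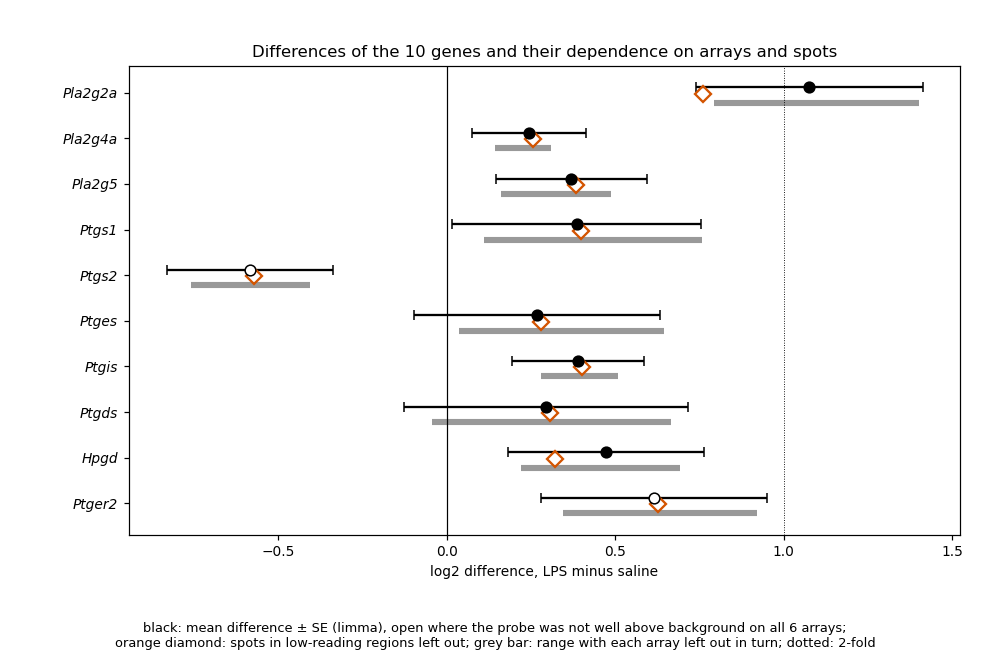
Log2 difference, LPS minus saline, of the 10 genes with its limma SE (black), the difference without spots in low-reading regions (orange diamonds) and the range with each array left out in turn (grey bars). Pla2g2a moves from 1.08 to 0.76 and Hpgd from 0.47 to 0.32 without those spots, and the other 8 genes by 0.013 at most.

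The genes did not share a single profile across the arrays. Over the 6 arrays, which share their treatments, Pearson's r between pairs of the 8 detected genes ran from -0.43 for Ptges and Hpgd to 0.96 for Ptgs1 and Ptgds. Ptgs1 and Ptgds were both highest on the replicate 1 arrays, and so was the dim Ptger2. Hpgd was too without the spots in low-reading regions, at -1.05 and -1.23 against -1.62 to -2.23. The mesothelial markers were also highest there, with a summed level of 43.1 on LPS 1 and 44.2 on saline 1 against 17.3 to 28.3 elsewhere. Oviduct markers summed to 22.4 and 23.5 there against 7.97 to 12.6. The part of these markers in the levels of Ptgs1, Ptgds, Ptger2 and Hpgd was not tested. Macrophage markers summed to 12.8 to 13 on the LPS arrays and 10.2 to 11.9 on the saline arrays, and mast cell markers to 2.51 to 3.52 and 1.98 to 3.79. In whole ovaries, more cells of a type cannot be told apart from more RNA in each cell. The genes nearest to Pla2g2a in profile among 10004 other detected genes were Radil (r = 0.98), Smtnl2 (0.96) and Parm1 (0.96). Those nearest to Pla2g4a were Ggct (0.999), Vwa1 (0.99) and Papss2 (0.99). Those nearest to Pla2g5 were Mageb7 (0.99), Ubap2l (0.99) and Tspan14 (0.99). These are the highest r among 10004 genes over 6 arrays, other genes came close to them, and nothing is read from the names. For Pla2g2a this likeness uses the mean of its 2 spots on saline 1. The r values between the 8 genes use such means for Pla2g2a and Hpgd, with 1 spot of each in the low-reading region.

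**Figure D4:**
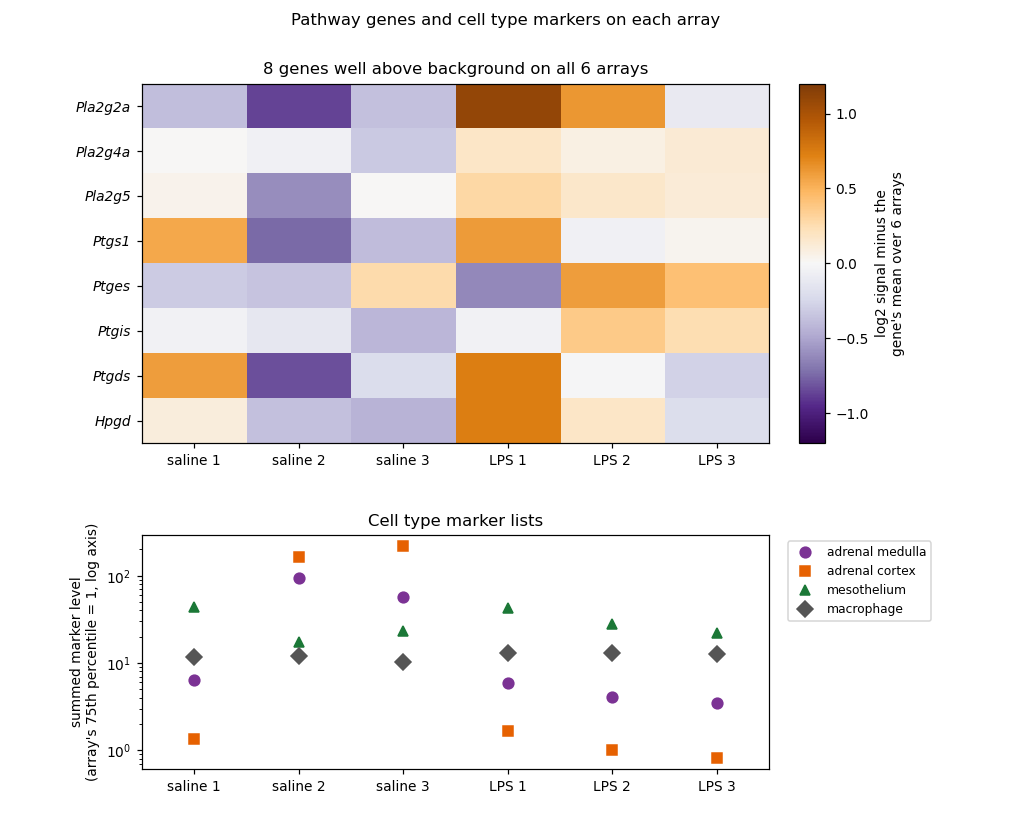
The upper panel shows the log2 signal of the 8 detected genes on each array minus the gene's mean over the 6 arrays. The lower panel shows the summed linear level of marker genes on a log axis, where 1 is the array's 75th percentile. Adrenal markers are high on saline 2 and 3 alone, and mesothelial markers are highest on both replicate 1 arrays, where Ptgs1 and Ptgds are also highest.

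The wider eicosanoid pathway was read from a list of 50 other genes, of which 44 had a probe. By limma, 2 of these reached a 2-fold rise at an unadjusted p under 0.05, against 0.594% of named genes, none was lower, against 1.17%, and none passed the adjusted p, the lowest of which was 0.272. The median difference was -0.04, and 7 genes had an unadjusted p under 0.05, or 15.9% against 15.6% of all named genes. Of those 7, Ptgfr, Cysltr1 and Cysltr2 were well above background on no array, and 2 were among the 27 genes detected on every array, or 7.41% against 4.66%. Among the 27 of them detected on all arrays, the LPS arrays all exceeded the saline arrays for 1 gene and all fell short of them for 4, against 5.88% and 6.88% of named genes. By role, the criterion was met by 0 of 14 other phospholipases and their regulators, 0 of 6 prostanoid synthases, 0 of 5 genes of transport and breakdown, 2 of 7 receptors and 0 of 12 genes of the lipoxygenase branch. The study had placed Ptger3, Pla2g2a, Ptgs1, Hpgd and Ptgdr in categories of genes it called upregulated by over 2-fold on these same samples. Their direction is thus not independent evidence. In the fit used here, the brightest probes of Ptgs1, Hpgd and Ptgdr did not meet the criterion, with differences of 0.39, 0.47 and 0.30.

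Both genes that passed were receptors of prostaglandin E2. Ptger3, which couples to inhibition of adenylyl cyclase, was at -2.82, -2.86 and -2.83 after LPS and at -5.02, -4.53 and -4.41 after saline. The groups were far apart, with a difference of 1.81 (SE 0.21, limma adjusted p = 0.272), and on saline 2 alone it was not well above background. One spot of this probe on saline 1, at -6.13 against -3.90 for the other, lay in the low-reading region, and without such spots the difference was 1.45 (SE 0.20, limma adjusted p = 0.309) and the groups stayed apart. Without saline 1 altogether it was 1.63, with a limma adjusted p of 0.0174. The saline group of that fit was saline 2 and 3 alone, the arrays with adrenal marker signal. Of 21 alternatives this adjusted p was the one under 0.05, and the others ran up to 0.963 with quantile normalization. With normexp correction it was 0.88, below the 2-fold criterion. A second Ptger3 probe was well above background on the LPS arrays alone. Its single spot on saline 1 lay in that region too, and without it the difference was 1.19 (SE 0.24).

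Ptger4, which raises cyclic AMP as Ptger2 does, was at -3.77, -5.62 and -5.09 after LPS and at -5.75, -6.50 and -6.24 after saline. It was well above background on LPS 1 and 3 only, and LPS 1 was far above the rest. The fitted difference was 1.34, with a limma adjusted p of 0.276, and no fold is given, since it was 0.29 with normexp correction and 0.59 with dim values floored, both short of the criterion. The criterion was lost without LPS 1, without saline 2 and without saline 3, at 0.81, 1.17 and 1.30. It was also lost by the methods' t-test, without saline 2 and 3 together (0.93) and without the spots in low-reading regions (1.21), where the groups overlapped.

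The other genes with separate groups had smaller differences. Alox12b, a lipoxygenase known from the skin barrier, differed by -0.92 (SE 0.28, limma adjusted p = 0.272), Ptgr3, a prostaglandin reductase, by -0.58 (SE 0.20, adjusted p = 0.272) and Cbr1, a carbonyl reductase that can act on prostaglandins, by -0.66 (SE 0.30, adjusted p = 0.334). A second Ptgr3 probe, also well above background on every array, differed by -0.41 (SE 0.23), and its groups overlapped. Alox12b passed the 2-fold criterion without LPS 1, at -1.15, and without saline 1, at -1.04. Cbr1 was at 1.90, 1.88 and 1.79 after LPS and at 1.96, 3.12 and 2.48 after saline. Its high values were on saline 2 and 3, the arrays with adrenal marker signal, and without both the difference was -0.10. Alox5ap, the protein that presents arachidonic acid to the 5-lipoxygenase, differed by 0.55 (SE 0.25, limma adjusted p = 0.326) and was the single gene of these that read higher. Pla2g6, a calcium-independent phospholipase, differed by -0.37 (SE 0.17, limma adjusted p = 0.333). Without saline 2 and 3 the difference was -0.68 for Alox12b, -0.33 for the first Ptgr3 probe, 0.34 for Alox5ap and -0.21 for Pla2g6.

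**Figure D5:**
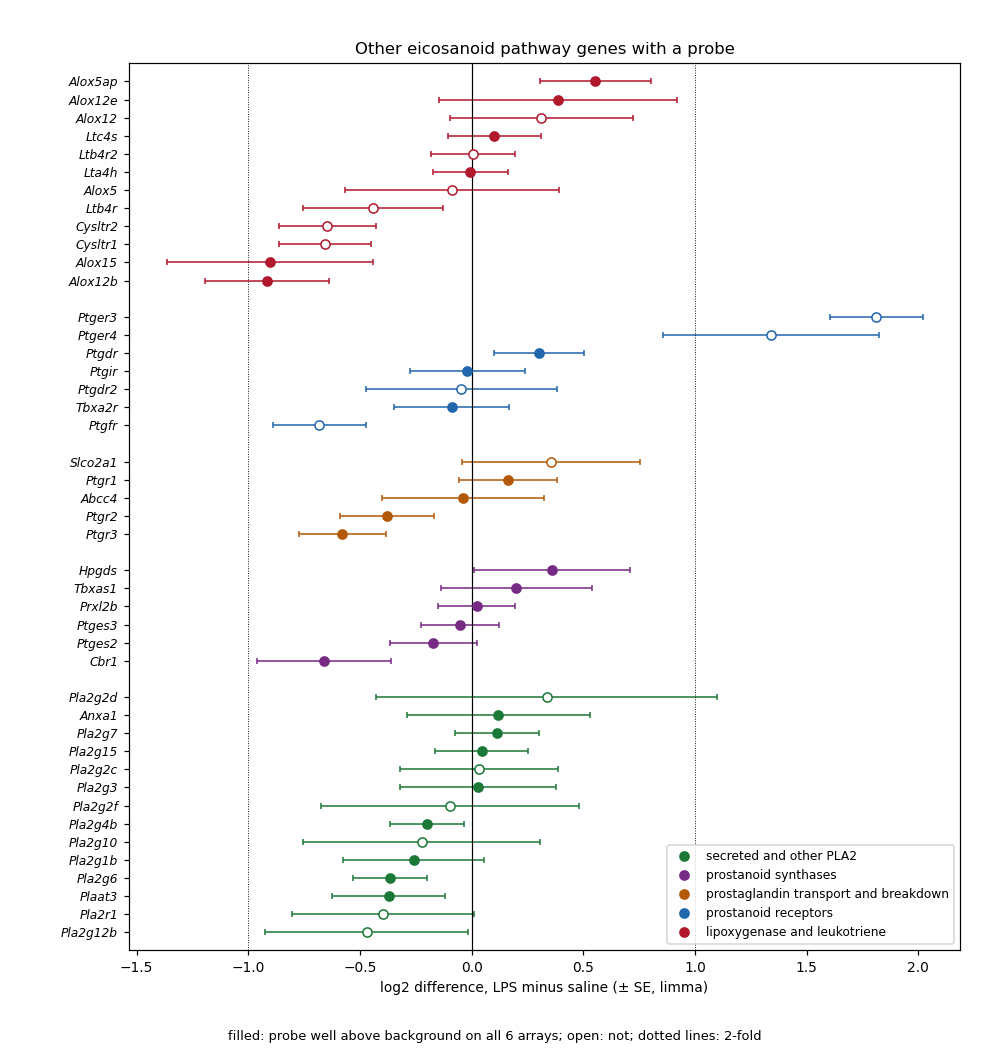
Log2 difference, LPS minus saline, with limma SE, for the 44 other pathway genes with a probe, coloured by role and ordered by difference within each role. Filled points were well above background on all 6 arrays. Ptger3 at 1.81 and Ptger4 at 1.34 are the genes beyond the dotted 2-fold lines, and both are open points.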

How the data were processed

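RNA of 3 LPS and 3 saline ovary samples was read on 1 array each. The authors deposited, for each array, spot intensity values from Agilent Feature Extraction 10.5.1.1, in which the processed signal has the background subtracted, with 0 or 1 flags in columns of other kinds. The deposited table of the whole series holds the same intensity values within 0.497%, unscaled; lumi is named in the submitters' processing notes without a version. Log2 values were computed here. Unflagged spots of a probe were averaged, and the array's 75th percentile over probes was subtracted. limma 3.58.1 (R 4.3.3) compared the treatments over 30367 probes with Benjamini-Hochberg adjustment, after a check on simulated data. Arrays were grouped by the titles, which number the replicates. Array number limits the precision, and an exact permutation test of 3 against 3 cannot go below p = 0.1.

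Symbols came from RefSeq accessions (17998 probes, 15154 genes, GRCr8 table, names only), with the brightest probe per gene. The 10 genes, the gene lists and the rules were chosen with earlier results of these data known. Named were all 10 genes, other pathway genes past 2-fold at an unadjusted p under 0.05, and those with separate groups and detection on every array of at least 1 treatment. Likeness was Pearson's r over 6 arrays. A low-reading region was found as a running median over a window of 9 by 9 spots (at least 10 of them) under -0.3 against the median of the other arrays. This alternative, leaving out saline 2 and 3, and both together were chosen after seeing the data. Deviations from the group means correlated between arrays of like replicate number (r = 0.298, 0.215 and 0.254), a pairing that comes from the data alone.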

Additional observations from a re-analysis of the deposited data

How the results depend on the processing

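Of 198 recomputed differences of the 10 genes, 177 moved by less than 1 SD between replicates, 20 moved further and Pla2g2a reversed, from 1.08 to -0.02708 without low-reading regions and saline 2 and 3, where Ptgs1 (-0.32), Ptgds (-0.41) and Hpgd (-0.32) also turned. Signs turned for Ptgs1 (-0.36) and Ptgds (-0.44) without saline 2 and 3, for Ptges (-0.49) with the slide row as a block, for Ptger2 (-0.04) with normexp and for Ptgds (-0.04) without saline 2, and Pla2g2a reached 1.64 with the slide row as a block. The count of these genes past 2-fold, 1, became 0 with normexp, the methods' t-test, low-reading regions out, saline 2 and 3 out or both out, and ran from 0 to 1 when single arrays were dropped. The count of other pathway genes, 2, became 0 with normexp, 1 with dim values floored, dim probes left out, the methods' t-test or low-reading regions out, and 4 after blocking on slide row, and ran from 1 to 4 when single arrays were dropped (4 without saline 1). Pla2g6 turned from -0.37 to 0.009026 without normalization. Over all probes the count of 513 (36.3% higher) became 1230 (81.5% higher) without normalization, 291 (40.6%) with quantile normalization, 283 (0.707%) with normexp, 311 (38.6%) with dim probes left out, 148 (67.6%) with the methods' t-test (0 after Benjamini-Hochberg), 1555 (95.8%) with the slide row as a block and 1000 (49.4%) without saline 2 and 3, and ran from 250 to 1131 when single arrays were dropped (1131 without saline 1, 908 without LPS 1, 262 without LPS 3, 250 without saline 2). It was 455 (20.2%) with dim values floored. Differences and counts with the slide row as a block rest on LPS 1 alone against the saline arrays. They are not read as an adjustment for the row. With the replicate block it was 628 against 513, and the block changed no call among the genes named here. The causes of these shifts were not tested. Signals near background, as for Ptgs2 and Ptger2, limit what the arrays can show.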
